A study of Mus musculus with 24 samples.

Results

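Transcripts of 10 Toll-like receptors (TLRs), Tlr1 to Tlr9 and Tlr13, were measured by RNA sequencing in mouse macrophages grown from bone marrow (BMDMs), which had been kept in medium from cultured lung cancer cells (conditioned media, CM) or in plain medium, each with and without the drug CDDO-Me. The 10 genes were taken by symbol from the 35770 genes of the deposited table, and all 10 passed the filter on low values that left 13661 genes for testing. Progenitors from C57BL/6 marrow were matured with 20 ng/mL M-CSF, the growth factor that drives macrophage differentiation. They were then held for 24 h in control media or in 75% CM that LL2 (Lewis lung carcinoma) cells had conditioned for 48 h. The LL2 cells were WT, KEAP1 KO or NRF2 KO. KEAP1 marks the transcription factor NRF2 for degradation, so the first knockout leaves NRF2 active and the second removes it. Each of the 4 media was combined with vehicle or 100 nM CDDO-Me, a synthetic triterpenoid that activates NRF2, which gave 8 groups of 3 libraries each. The knockouts were in the cancer cells and not in the macrophages, and 1 line stood for each genotype, so a genotype and its line cannot be told apart.

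TLRs are the sensors with which macrophages recognise conserved molecules of microbes and of damaged cells. Those on the cell surface read lipoproteins, lipopolysaccharide and flagellin, while those in endosomes read nucleic acids and must be escorted there by the chaperone Unc93b1 and cut by endosomal proteases. Most signal through the adaptor Myd88 to NF-kB and interferon regulatory factors, which turn on cytokine and interferon genes.

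Levels are given in TPM, the deposited unit, a share of all transcripts corrected for transcript length so that genes can be compared with each other. Differences are log2 differences between group means of scaled TPM plus a pseudocount of 1. Whether groups overlapped was judged on TPM before scaling. They were tested with limma, with Benjamini-Hochberg adjustment across the 13661 genes. A gene was called at an adjusted p under 0.05. The labels give replicate numbers only, and the paper's methods call the 3 samples of a group independent without tying them to separate animals. The p-values therefore measure the spread between these samples, which may be technical. The replicate 3 libraries of NRF2 KO CM, with vehicle and with CDDO-Me, stood apart from the others. They held 15702 and 16299 genes above 0 against 17817 to 18993 elsewhere, and 9.87% and 4.74% of their TPM came from mitochondrial genes against 1.54 to 3.32%. Within that range the 6 libraries with CDDO-Me in WT CM or KEAP1 KO CM were the lowest, at 1.54 to 2.08% against 2.44% or more in every library of the other 6 groups, and the part of this shift in the CDDO-Me differences was not tested. Tlr3 to Tlr9 and Tlr13 were each higher in both NRF2 KO replicate 3 libraries than in the other libraries of their groups. All groups share 1 estimate of the spread. Results for the members that change without both of these NRF2 KO libraries are given both ways. Other genes were followed there only as counts over all genes. All 7 macrophage markers, among them Cd68, Csf1r and Adgre1, were detected, and their summed level ran from 14890 to 38320 TPM. Fibroblast markers summed to 217.5 to 2696 TPM, neutrophil markers to 10.3 to 71.3 TPM, and markers of B and T cells stayed at or under 2.65 and 0.900 TPM. In bulk RNA, fewer cells of a type and less RNA per cell cannot be told apart.

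The 10 genes lie on 7 chromosomes of GRCm39. Tlr1 and Tlr6 are neighbours on chromosome 5, with 17762 bases between them, and Tlr7 and Tlr8 are neighbours on chromosome X, 39432 bases apart. Of the 31-base words of the Tlr1 transcripts, 19.5% also occur in another gene, mostly Tlr6, and 12.9% of those of Tlr6 are shared, mostly with Tlr1. Reads from the shared stretch had to be split between the pair by the quantification, so levels of Tlr1 and Tlr6 are uncertain to that extent. For Tlr8 and Tlr9 no such word was shared. The 250 bases before the start of 5 genes are printed in GRCm39, each read 5′ to 3′ on the strand of its gene. Tlr9, Tlr2 and Tlr4 are shown as members with large changes under CM or CDDO-Me, and Tlr11 and Tlr12, the remaining mouse TLRs, because their transcripts appeared in the same groups in which Tlr9 rose. None of the 5 windows overlaps an exon of its own gene, and that of Tlr4 overlaps an exon of the antisense noncoding gene Gm69151. Capitals mark matches, on either strand, to GAGGAA (the PU.1 core), TGACNNNGC (the core of the antioxidant response element, ARE, bound by NRF2), GAAA followed after any 2 bases by GAAA (the core of the interferon-stimulated response element, ISRE) and the NF-kB consensus.
Tlr9, chr9:106099547-106099796, plus strand: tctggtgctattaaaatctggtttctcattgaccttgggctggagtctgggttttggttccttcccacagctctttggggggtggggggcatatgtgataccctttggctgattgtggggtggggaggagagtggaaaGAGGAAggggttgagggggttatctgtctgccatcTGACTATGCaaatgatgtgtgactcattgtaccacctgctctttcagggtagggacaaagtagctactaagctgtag
Tlr2, chr3:83749075-83749324, minus strand: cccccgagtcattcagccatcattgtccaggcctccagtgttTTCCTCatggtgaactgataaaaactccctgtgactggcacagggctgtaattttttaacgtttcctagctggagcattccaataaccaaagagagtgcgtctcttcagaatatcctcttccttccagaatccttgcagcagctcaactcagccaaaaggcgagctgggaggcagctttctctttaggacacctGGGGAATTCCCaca
Tlr4, chr4:66745533-66745782, plus strand: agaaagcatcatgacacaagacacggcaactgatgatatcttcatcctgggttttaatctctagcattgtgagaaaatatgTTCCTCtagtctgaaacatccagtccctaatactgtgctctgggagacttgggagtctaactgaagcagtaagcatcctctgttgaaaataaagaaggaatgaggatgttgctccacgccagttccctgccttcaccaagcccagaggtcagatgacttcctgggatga
Tlr11, chr14:50595121-50595370, plus strand: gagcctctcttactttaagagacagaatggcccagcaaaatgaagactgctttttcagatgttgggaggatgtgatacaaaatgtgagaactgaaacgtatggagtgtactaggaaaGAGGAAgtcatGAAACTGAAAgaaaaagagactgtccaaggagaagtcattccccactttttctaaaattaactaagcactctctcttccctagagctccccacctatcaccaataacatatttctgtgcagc
Tlr12, chr4:128512413-128512662, minus strand: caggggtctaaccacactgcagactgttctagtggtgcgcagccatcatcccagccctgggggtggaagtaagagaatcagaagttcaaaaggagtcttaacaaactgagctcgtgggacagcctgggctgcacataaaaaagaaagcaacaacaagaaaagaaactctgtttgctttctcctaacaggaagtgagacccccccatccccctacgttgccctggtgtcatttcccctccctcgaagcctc

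A PU.1 core, the motif of a factor that defines macrophages, lay in the windows of Tlr2, Tlr4, Tlr9 and Tlr11, and in all in 6 of 12 TLR windows. The same letters occurred in 22.9% of 21751 promoter windows of the annotation. In Tlr9 the ARE core began at -77 and the PU.1 core at -112 from the start of the gene. The ARE letters occurred in 9.68% of all windows and in 1 of the 12 TLR windows. In Tlr2 the NF-kB consensus matched at -14 and -13 in overlapping positions, a motif held by 4.23% of all windows, and Tlr3 had another match at -204. The ISRE core of Tlr11 at -122 was the only one among the 12, against 3.32% of all windows. None of these motifs was matched in the window of Tlr12. A match describes the letters only, and no binding was measured.

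In media/vehicle BMDMs the order of mean levels ran from Tlr13, a receptor for bacterial ribosomal RNA, at 167 ± 15.3 TPM (SD, n = 3) through Tlr8 at 115 ± 12.02 TPM and Tlr7 at 95.5 ± 18.7 TPM, both endosomal relatives that read single-stranded RNA. Tlr1, Tlr4 and Tlr2 followed between 41.8 and 47.3 TPM. Lower still were Tlr6 at 16.4 ± 0.241 TPM, Tlr9 at 14.8 ± 2.68 TPM and Tlr3 at 7.74 ± 1.38 TPM, while the flagellin receptor Tlr5 was at 0.656 ± 0.0292 TPM. Summed over members, the 5 cell surface receptors gave 145 to 155 TPM and the 5 endosomal ones 372 to 451 TPM in these 3 libraries. Across the 8 groups, Tlr9 had the widest range of group means, 3.08 on the log2 scale, followed by Tlr7 with 2.49 and Tlr2 with 1.95. The narrowest ranges were those of Tlr6 with 0.66 and Tlr5 with 0.68.

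**Figure D1:**
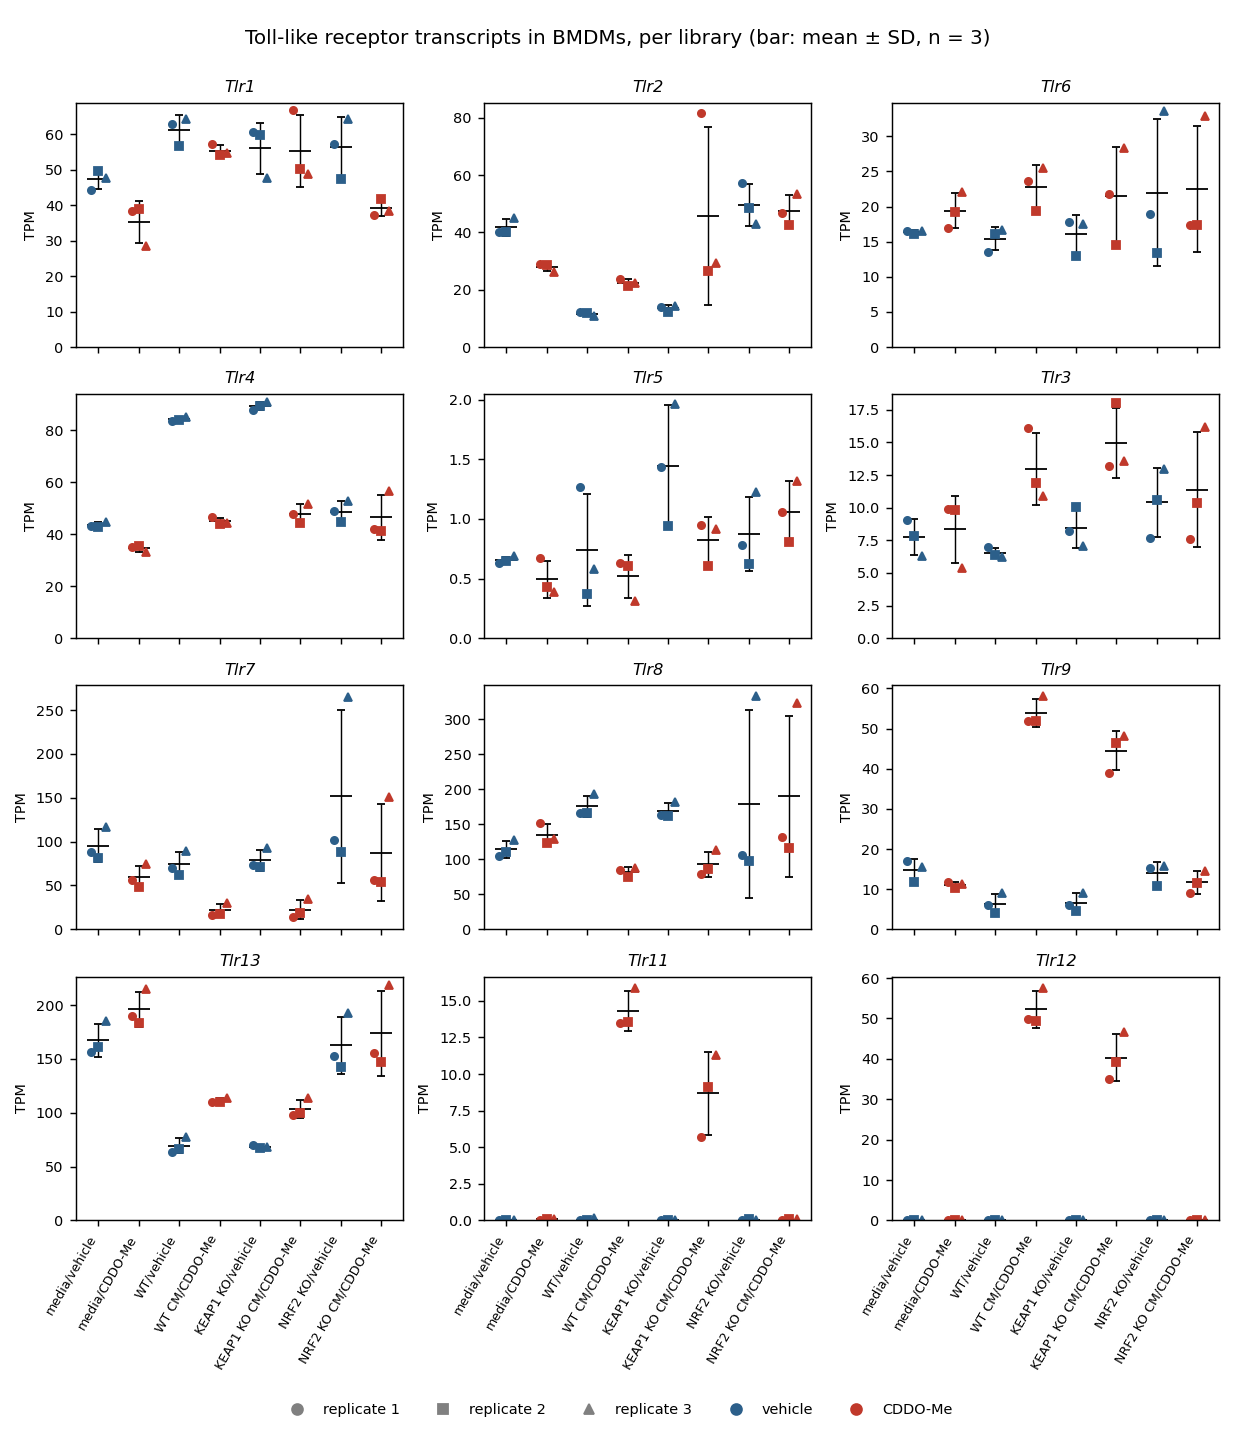
TPM of the 10 members and of Tlr11 and Tlr12 in each of the 24 libraries, by group. Blue marks vehicle and red CDDO-Me, circles, squares and triangles are replicates 1, 2 and 3, and the bars give mean ± SD (n = 3). Tlr9, Tlr11 and Tlr12 are highest with CDDO-Me in WT CM and KEAP1 KO CM, Tlr4 in WT/vehicle and KEAP1 KO/vehicle BMDMs, and Tlr2 is lowest in those last 2 groups.

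The first question was how tumor CM alone altered TLR transcripts. In WT/vehicle against media/vehicle BMDMs, Tlr2, Tlr9 and Tlr13 fell and Tlr4 rose, and the other 6 members did not pass the test. That made 4 of 10 members called, where 7.33% of all tested genes were called, and the median member difference of -0.09 compares with 0.01 over all genes. KEAP1 KO/vehicle BMDMs gave the same 4 calls in the same directions, with 7.96% of all genes called. In each comparison 6 of 10 members did not overlap, against 35% (WT) and 35.8% (KEAP1 KO) of all genes. Both comparisons share the media/vehicle libraries.

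Tlr2 pairs with Tlr1 or Tlr6 to read bacterial lipoproteins. Its level was 40.1, 39.97 and 45.2 TPM in the media/vehicle libraries and 12.3, 11.98 and 10.7 TPM in the WT/vehicle libraries. With KEAP1 KO CM it was 13.8, 12.1 and 14.5 TPM. Every library under either CM lay below every control library, a log2 difference of -1.69 (SE 0.27, limma adjusted p = 0.000348) for WT CM and of -1.57 (adjusted p = 0.000645) for KEAP1 KO CM. Its partners did not move with it. Tlr1 lay above the control range in WT/vehicle BMDMs, at 63.0, 56.7 and 64.2 TPM against 44.4, 49.8 and 47.7 TPM, but the log2 difference of 0.43 was not called (adjusted p = 0.108). Without both replicate 3 libraries of NRF2 KO the difference was 0.42 and was called (adjusted p = 0.0274). A weight for each library and a fit of the compared groups only also called it. Tlr6 differed by -0.03 on the log2 scale (adjusted p = 0.991).

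Tlr4, which with its cofactors Ly96 and Cd14 reads lipopolysaccharide, moved the other way. The media/vehicle libraries had 43.1, 43.0 and 44.8 TPM, the WT/vehicle libraries 83.7, 84.1 and 85.1 TPM, and the KEAP1 KO/vehicle libraries 87.7, 89.6 and 91.0 TPM. All 6 CM libraries stood well above the controls, with log2 differences of 1.00 (SE 0.14, adjusted p = 0.000108) and 1.009 (adjusted p = 8.83e-05). In unscaled TPM the 2 CM groups overlapped neither with the controls nor with each other. After scaling, their own difference was 0.01 on the log2 scale (adjusted p = 1). The scaling factors were 0.963 to 1.02 in WT/vehicle and 1.011 to 1.092 in KEAP1 KO/vehicle libraries.

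Of the endosomal receptors, Tlr13 fell by 1.19 on the log2 scale (SE 0.19, adjusted p = 0.000265) in WT/vehicle BMDMs, from 157, 161 and 185 TPM to 64.0, 66.8 and 77.6 TPM. In KEAP1 KO/vehicle BMDMs it was at 70.2, 66.9 and 68.6 TPM, a log2 difference of -1.28 (adjusted p = 0.00011). Tlr9, which reads unmethylated CpG DNA, went from 17.0, 11.8 and 15.5 TPM to 6.15, 4.09 and 8.94 TPM with WT CM and to 6.08, 4.48 and 9.15 TPM with KEAP1 KO CM. No CM library reached the lowest control, with log2 differences of -1.07 (SE 0.27, adjusted p = 0.017) and -1.09 (adjusted p = 0.0138). These Tlr9 calls were lost when single libraries were left out, with adjusted p up to 0.117 for WT CM (without media/vehicle 1 or 3, or WT/vehicle 1 or 2) and 0.0826 for KEAP1 KO CM (without media/vehicle 1 or 3, or KEAP1 KO/vehicle 2). Tlr8 lay between 105 and 128 TPM in controls and between 162 and 193 TPM in the 6 CM libraries, which did not overlap. The log2 differences of 0.68 (adjusted p = 0.448) and 0.55 (adjusted p = 0.559) were not called in the main fit of all 24 libraries. They were called with a weight for each library and in a fit of the compared groups only. Without both replicate 3 libraries of NRF2 KO they were also called, at 0.67 (adjusted p = 0.00177) and 0.55 (adjusted p = 0.00646). In that fit 6 and 5 members were called, against 19.1% and 21.8% of all genes. Tlr7 and the double-stranded RNA receptor Tlr3 overlapped with their controls in both groups. The sum of 4 epithelial or carcinoma cell markers also separated these groups. It was 3.11 to 7.23 TPM in the 6 CM libraries and at most 0.0899 TPM in media/vehicle BMDMs. Of the 4 markers only 1 passed the filter, and the sum was 0 to 0.421 TPM in NRF2 KO/vehicle BMDMs. Fibroblast marker sums overlapped (647.6 to 1728 against 1099 to 1750 TPM). The macrophage sum was lower in the CM libraries without overlap, at 16600 to 20370 TPM against 22110 to 22640 TPM, and so was the mast cell and basophil sum, at 1.76 to 5.72 TPM against 6.62 to 9.66 TPM. The plasmacytoid dendritic cell sum was 4.802 to 6.83 TPM with WT CM and 2.13 to 4.30 TPM with KEAP1 KO CM, against 1.40 to 3.35 TPM in media/vehicle BMDMs. Of its 4 markers only 1 passed the filter. The part of other cells in the 4 member differences was not tested.

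NRF2 KO CM did not give these differences. In NRF2 KO/vehicle against media/vehicle BMDMs limma called none of the 10 members, and none had an unadjusted p under 0.05. Only 0.00732% of all genes were called, while 12.1% had an unadjusted p under 0.05. Member differences ran from -0.05 to 0.52 on the log2 scale, and their 95% intervals reached from -0.61 to 1.49, and for the 4 members called with WT CM they were -0.30 to 0.83 (Tlr2), -0.12 to 0.48 (Tlr4), -0.61 to 0.52 (Tlr9) and -0.41 to 0.37 (Tlr13), none of which reaches the difference seen with WT CM. Set directly against NRF2 KO/vehicle BMDMs, the same 4 members were called in both CM groups, where 10.7% (WT) and 8.81% (KEAP1 KO) of all genes were called. Tlr2 was at 57.2, 48.5 and 42.9 TPM in NRF2 KO/vehicle BMDMs, and the WT/vehicle group was lower by a log2 difference of -1.95 (adjusted p = 7.27e-05). The corresponding differences were 0.82 for Tlr4 (adjusted p = 0.000867), -1.02 for Tlr9 (adjusted p = 0.0185) and -1.17 for Tlr13 (adjusted p = 0.000322). For KEAP1 KO/vehicle they were -1.83 for Tlr2 (adjusted p = 0.000151), 0.83 for Tlr4 (adjusted p = 0.000811), -1.05 for Tlr9 (adjusted p = 0.0179) and -1.26 for Tlr13 (adjusted p = 0.000153). In a fit of the compared groups only, Tlr4, Tlr9 and Tlr13 were no longer called against WT CM (adjusted p = 0.0883, 0.224 and 0.0675) or KEAP1 KO CM (adjusted p = 0.0985, 0.248 and 0.0513). The Tlr9 calls were also lost without replicate 3 of NRF2 KO/vehicle or replicate 1 or 2 of either CM/vehicle group (adjusted p up to 0.106 and 0.0936).

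When KEAP1 KO/vehicle BMDMs were set against WT/vehicle, no member and no gene was called by limma (0% of all genes). With array weights, which give each library its own weight in the fit, 1080 genes and still 0 members were called. Tlr3, at 8.19, 10.1 and 7.10 TPM with KEAP1 KO CM against 6.999, 6.39 and 6.22 TPM with WT CM, and Tlr4 were higher without overlap (log2 differences 0.25 and 0.01, adjusted p = 1 for both), which made 2 of 10 members against 13.6% of all genes. At the unadjusted level, 1 member and 341 genes (2.5%) had a p under 0.05, and member differences lay between -0.21 and 0.46 on the log2 scale with 95% intervals from -0.98 to 0.99. That member was Tlr5, at 1.43, 0.937 and 1.96 TPM against 1.27, 0.370 and 0.579 TPM, and its groups overlapped.

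**Figure D2:**
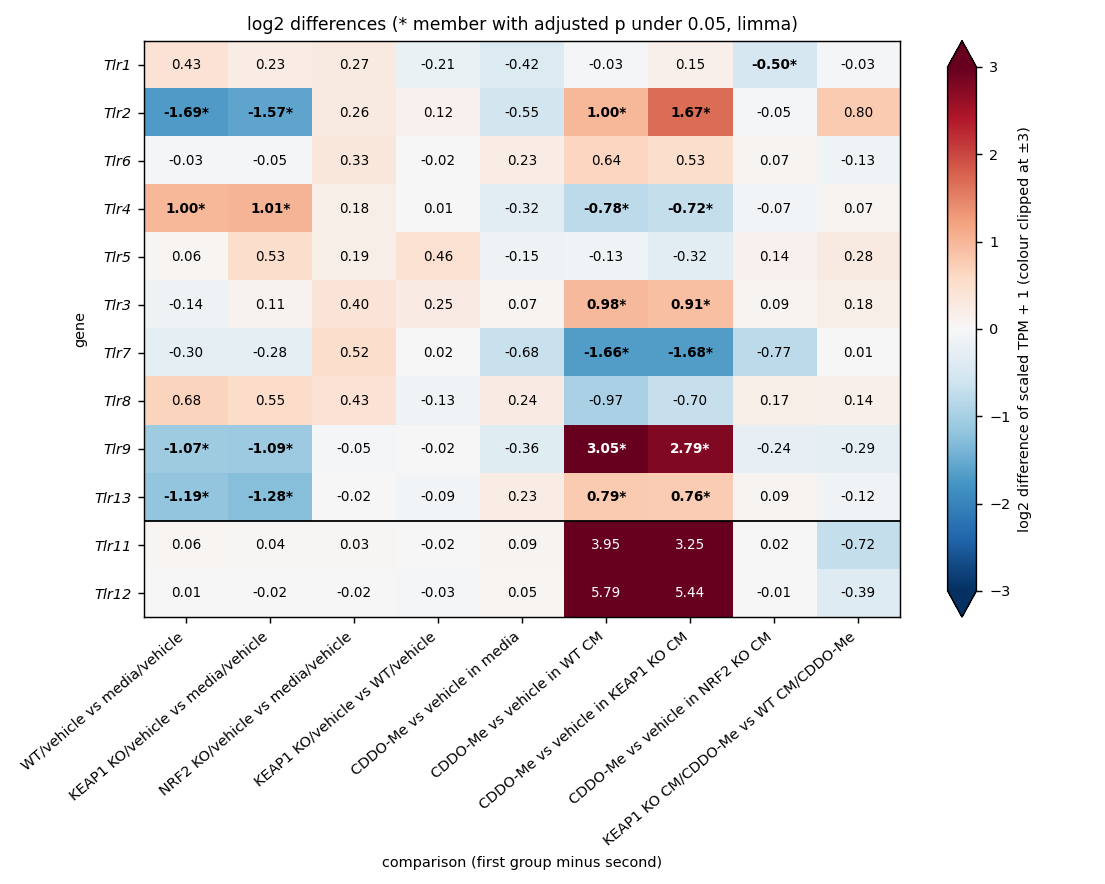
Log2 differences of the 10 members, Tlr11 and Tlr12 (lines of the map) in 9 comparisons (columns), with the colour scale ending at 3 in either direction and asterisks on members called at adjusted p under 0.05. The map shows the same 4 members called with WT CM and KEAP1 KO CM, none called with CDDO-Me in control media, and 6 members called with CDDO-Me in both of these CM, where Tlr11 and Tlr12, shown without a test, have their highest values.

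The next question was what CDDO-Me did to TLR transcripts in each medium. In control media limma called no member, against 6.01% of all genes, while 2 members (Tlr1 and Tlr4) and 16.1% of all genes had an unadjusted p under 0.05. The median member difference was -0.24, against -0.01 over all genes. Tlr1 was at 38.3, 38.9 and 28.5 TPM, below every media/vehicle library, with a log2 difference of -0.42 (adjusted p = 0.134). Tlr4 was at 35.3, 35.4 and 33.2 TPM, also below every control (-0.32, adjusted p = 0.261). Without both replicate 3 libraries of NRF2 KO these 2 members were called, at -0.41 (adjusted p = 0.0375) and -0.31 (adjusted p = 0.00429), against 15.6% of all genes. Array weights and the compared groups alone also called both. Tlr2, Tlr7 and Tlr9 also lay below their controls without overlap, with log2 differences of -0.55, -0.68 and -0.36 that were not called (adjusted p = 0.329, 0.593 and 0.641). The compared groups alone called Tlr2, and array weights called Tlr7. In all, 6 of 10 members did not overlap between these groups, against 31.5% of all genes. Of these, Tlr6 was higher with CDDO-Me, at 16.995, 19.2 and 22.0 TPM against 16.5, 16.1 and 16.5 TPM.

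In WT CM the response was larger and ran in both directions. CDDO-Me raised Tlr9, Tlr2, Tlr3 and Tlr13 and lowered Tlr4 and Tlr7, so that 6 of 10 members were called against 27.8% of all genes, and the median member difference was 0.31 against -0.03 over all genes. The same 6 members were called with the same signs in KEAP1 KO CM, where 28.8% of all genes were called. Without overlap were 8 of 10 members in WT CM and 7 in KEAP1 KO CM, against 53.5% and 54.1% of all genes. Each CM has its own vehicle group, so these comparisons share no library.

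The change of Tlr9 was the widest. From 6.15, 4.09 and 8.94 TPM in WT/vehicle BMDMs it rose to 51.9, 51.9 and 58.0 TPM in WT CM/CDDO-Me BMDMs. In KEAP1 KO CM it went from 6.08, 4.48 and 9.15 TPM to 38.9, 46.4 and 48.2 TPM. The 6 treated libraries lay above all 18 libraries of the other groups, of which the highest had 17.0 TPM. The log2 differences were 3.05 (SE 0.27, adjusted p = 2.81e-08) and 2.79 (SE 0.27, adjusted p = 1.01e-07). In the order of the 8 group means, the treated WT CM libraries all lay above the treated KEAP1 KO CM libraries, but this difference was not called (log2 difference 0.29, adjusted p = 1). The step down to media/vehicle was called (1.70, adjusted p = 6.06e-05), and none of the 5 steps further down between neighbours was called. Groups there that are not neighbours did differ in the main fit. WT/vehicle and KEAP1 KO/vehicle were called lower than media/vehicle and NRF2 KO/vehicle, as given above.

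Tlr11 and Tlr12, endosomal receptors for the parasite protein profilin in mice and no members of the set of 10, showed the same split. Tlr11 lay between 0 and 0.143 TPM in the 18 libraries of 6 groups. It was at 13.5, 13.6 and 15.9 TPM in WT CM/CDDO-Me BMDMs and at 5.68, 9.11 and 11.3 TPM in KEAP1 KO CM/CDDO-Me BMDMs. Tlr12 went from at most 0.195 TPM to 49.9, 49.4 and 57.5 TPM and to 35.1, 39.2 and 46.7 TPM. Both genes passed the filter on low values only through these 6 libraries, so their differences are given as a description without a test. On the log2 scale these were 3.95 and 3.25 for Tlr11 and 5.79 and 5.44 for Tlr12. Because of the pseudocount these values understate the change of genes that start near 0.

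Both are known from dendritic cells as well as macrophages, so the 5 fixed markers of conventional dendritic cells were read beside them. Their sum was 0.724 to 1.94 TPM in the 18 other libraries, 100.2 to 127 TPM in WT CM/CDDO-Me and 46.9 to 86.1 TPM in KEAP1 KO CM/CDDO-Me BMDMs. Of the 5, 2 were higher in the treated libraries. Clec9a, a receptor for dead cells that marks type 1 conventional dendritic cells, went from at most 0.497 TPM to between 43.8 and 123 TPM, and the chemokine receptor Xcr1, a marker of the same cells, from at most 0.1802 TPM to between 1.91 and 4.69 TPM. Flt3 and Zbtb46, which mark conventional dendritic cells more widely, were at 0 to 0.0357 TPM and at 0.453 to 0.759 TPM in the 6 treated libraries against 0 to 0.239 and 0.434 to 1.36 TPM elsewhere, and Ccr7 stayed at or under 0.498 TPM in all 24. The part of dendritic cells in the levels of Tlr9, Tlr11 and Tlr12 was not tested. Plasmacytoid dendritic cell markers summed to at most 3.80 TPM in these 6 libraries, lower than with vehicle in the same CM.

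**Figure D3:**
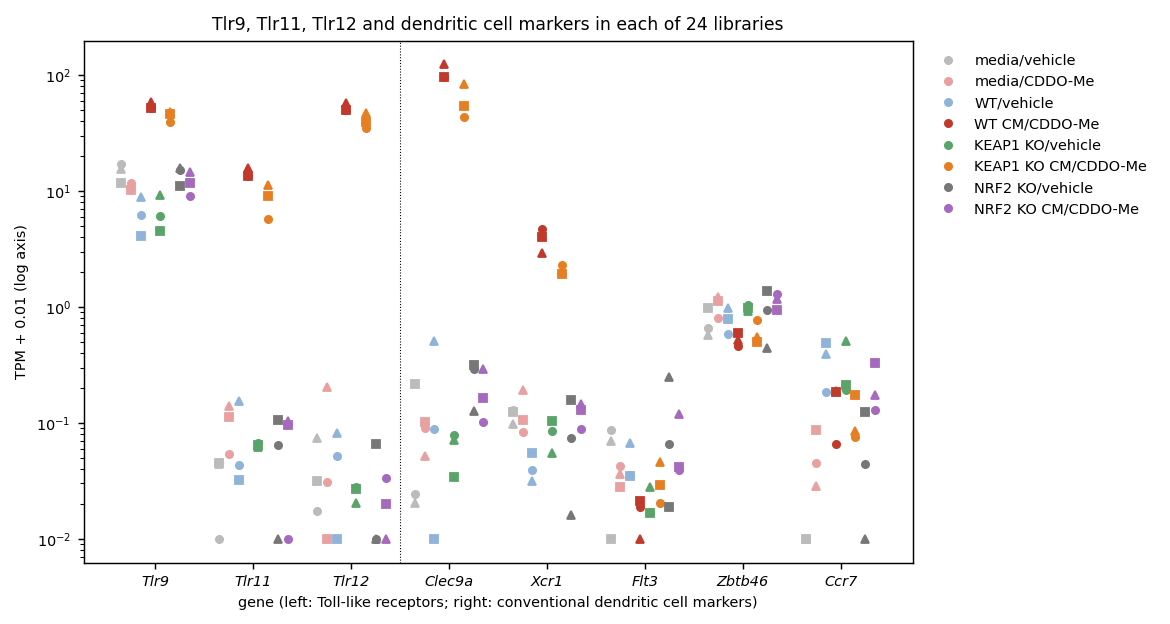
TPM plus a small offset, on a log axis, of Tlr9, Tlr11, Tlr12 and the 5 conventional dendritic cell markers in all 24 libraries, by group. Tlr11, Tlr12, Clec9a and Xcr1 step up in the 6 libraries with CDDO-Me in WT CM or KEAP1 KO CM, while Flt3, Zbtb46 and Ccr7 stay at or under 1.36 TPM throughout.

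Tlr2 rose with CDDO-Me from 12.3, 11.98 and 10.7 TPM to 23.7, 21.5 and 22.2 TPM in WT CM (log2 difference 1.00, SE 0.27, adjusted p = 0.00802), which left it below all 3 media/vehicle libraries. In KEAP1 KO CM the treated libraries had 81.6, 26.6 and 29.2 TPM against 13.8, 12.1 and 14.5 TPM, a log2 difference of 1.67 (adjusted p = 6.5e-05). Replicate 1 alone lay above the media/vehicle range. The same library was also high for Cd14, at 167 TPM against 52.7 and 71.7 TPM in its group. Without it the Tlr2 difference was 1.15 (adjusted p = 0.000513).

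Tlr3 was at 16.1, 11.9 and 10.9 TPM in WT CM/CDDO-Me BMDMs against 6.999, 6.39 and 6.22 TPM with vehicle, without overlap (log2 difference 0.98, SE 0.26, adjusted p = 0.00736). With KEAP1 KO CM it was at 13.2, 18.1 and 13.6 TPM against 8.19, 10.1 and 7.10 TPM (0.91, adjusted p = 0.0115). Tlr3 alone among the members is known to signal through the adaptor Ticam1 rather than Myd88. Tlr13 rose from between 64.0 and 77.6 TPM to 110.2, 109.6 and 114 TPM in WT CM (0.79, SE 0.19, adjusted p = 0.00279) and to 97.9, 99.9 and 113 TPM in KEAP1 KO CM (0.76, adjusted p = 0.00358). All 6 treated libraries stayed below the lowest media/vehicle library, which had 157 TPM.

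Tlr4 fell to 46.6, 44.0 and 44.5 TPM in WT CM/CDDO-Me BMDMs, a log2 difference of -0.78 (SE 0.14, adjusted p = 0.00027). In KEAP1 KO CM it fell to 47.9, 44.5 and 51.6 TPM (-0.72, adjusted p = 0.000618). Neither treated group reached the vehicle range, which began at 83.7 TPM. In the order of group means, taken from these same data, only 1 step between neighbours was called for Tlr4. It was that from WT/vehicle down to KEAP1 KO CM/CDDO-Me (0.71, adjusted p = 0.000733). Tlr7 fell from 70.4, 62.0 and 89.4 TPM to 16.1, 18.0 and 30.5 TPM in WT CM and from 72.9, 70.8 and 92.6 TPM to 13.8, 19.1 and 34.9 TPM in KEAP1 KO CM. The groups did not overlap, and the log2 differences were -1.66 (SE 0.46, adjusted p = 0.00933) and -1.68 (SE 0.46, adjusted p = 0.0084). Without replicate 1 of KEAP1 KO CM/CDDO-Me the second was no longer called (adjusted p = 0.0525).

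Tlr8, the neighbour of Tlr7, had 85.4, 74.4 and 87.4 TPM in WT CM/CDDO-Me BMDMs against 166, 167 and 193 TPM with vehicle. With KEAP1 KO CM the values were 79.4, 85.9 and 113 TPM against 163, 162 and 181 TPM. No treated library reached a vehicle library, where 53.5% (WT CM) and 54.1% (KEAP1 KO CM) of all genes did not overlap. In the main fit the log2 differences of -0.97 (adjusted p = 0.0897) and -0.70 (adjusted p = 0.238) were not called. Array weights and the compared groups alone called both. The WT CM difference was also called without scaling and with a replicate block, which adds the replicate number to the fit. Without both replicate 3 libraries of NRF2 KO the differences were -0.92 (adjusted p = 1.87e-05) and -0.67 (adjusted p = 0.000475) and were called. Tlr6 behaved alike in this respect. At 23.6, 19.4 and 25.5 TPM against 13.5, 16.03 and 16.6 TPM in WT CM, its log2 difference was 0.64 (adjusted p = 0.17) in the main fit. Array weights, the replicate block and the compared groups alone called this difference. Without those 2 libraries it was 0.69 (adjusted p = 0.0123). In KEAP1 KO CM it was 0.53 (adjusted p = 0.269) and 0.55 (adjusted p = 0.0378), and with single libraries left out it ran from 0.31 (adjusted p = 0.638, without KEAP1 KO CM/CDDO-Me replicate 3) to 0.83 (adjusted p = 0.089, without replicate 2 of that group) and was not called. The fit without both libraries thus called 8 of 10 members in each CM, against 43.7% and 45.3% of all genes. Tlr1 and Tlr5 were not called in either fit.

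**Figure D4:**
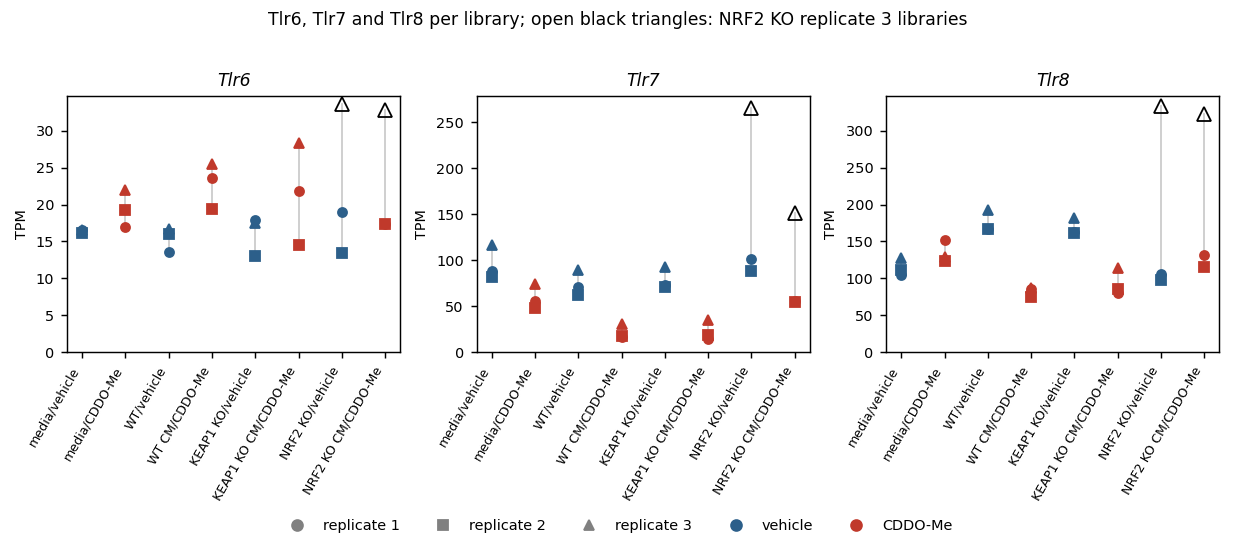
TPM of Tlr6, Tlr7 and Tlr8 in each library, by group, with the 2 NRF2 KO replicate 3 libraries drawn as open triangles. These 2 libraries have 265 and 151 TPM for Tlr7 and 334 and 322 TPM for Tlr8, above all other libraries, and the WT CM and KEAP1 KO CM groups with CDDO-Me are the lowest for both genes.

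In NRF2 KO CM, CDDO-Me changed 1 member, where 9.77% of all genes were called. Tlr1 fell from 57.3, 47.5 and 64.3 TPM to 37.4, 41.9 and 38.4 TPM (log2 difference -0.50, SE 0.15, adjusted p = 0.0447), and this call depended on single libraries. It was lost without both replicate 3 libraries (-0.36, adjusted p = 0.184), in the compared groups alone (adjusted p = 0.564), and without NRF2 KO/vehicle replicate 1 or 3 or NRF2 KO CM/CDDO-Me replicate 1 or 2 (adjusted p up to 0.168). The other members overlapped between these groups, where 17.6% of all genes did not. Tlr9 was at 15.2, 10.9 and 15.8 TPM with vehicle and 8.95, 11.6 and 14.5 TPM with CDDO-Me. Tlr7 was at 101.4, 88.1 and 265 TPM with vehicle and 56.1, 54.3 and 151 TPM with CDDO-Me, lower in each of the 3 pairs of libraries with the same replicate number. Same-numbered libraries of these groups deviated together (correlations 0.504 to 0.717). The log2 difference of Tlr7 was -0.77, which was not called without the replicate block (adjusted p = 0.381) and was called with it (adjusted p = 0.0387). In replicate 3, Tlr7 was above the other 2 libraries in all 8 groups, and Tlr6, Tlr8 and Tlr13 were in 7 of 8.

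The effects of CDDO-Me in different media were compared directly as interactions. Against control media, the effect was larger in WT CM for Tlr9, by 3.42 on the log2 scale (SE 0.38, adjusted p = 1.65e-06), and for Tlr2, by 1.55 (adjusted p = 0.00756). These were 2 of 10 members, where 15% of all genes were called. In KEAP1 KO CM the same 2 members were called, Tlr9 by 3.15 (adjusted p = 5.02e-06) and Tlr2 by 2.23 (adjusted p = 0.000308), against 14.7% of all genes. Without replicate 1 of KEAP1 KO CM/CDDO-Me the Tlr2 value was 1.71. Between WT CM and NRF2 KO CM, Tlr9 differed by 3.30 (adjusted p = 2.76e-06) and Tlr4 by -0.71 (adjusted p = 0.0226), with 13.3% of all genes called, and the Tlr4 call was lost without WT/vehicle replicate 3, NRF2 KO/vehicle replicate 2 or WT CM/CDDO-Me replicate 2 (adjusted p up to 0.0665), and in the compared groups alone (adjusted p = 0.0954). The differences of Tlr7 were not shown to exceed that in control media (log2 differences of the effects -0.99 and -1.002, adjusted p = 0.407 and 0.394), although with the replicate block both were called (adjusted p = 0.0487 and 0.0449). The block also called Tlr13 against control media in both CM (0.56, adjusted p = 0.0235, and 0.53, adjusted p = 0.0311) and Tlr4 in WT CM (-0.46, adjusted p = 0.0486).

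Without both replicate 3 libraries of NRF2 KO, 6 members had called interactions for WT CM against media, with 28.9% of all genes called. Beyond Tlr2 and Tlr9 these were Tlr3 (0.93, adjusted p = 0.0148), Tlr4 (-0.43, adjusted p = 0.00235), Tlr8 (-1.18, adjusted p = 0.000119) and Tlr13 (0.59, adjusted p = 0.00434). For KEAP1 KO CM 7 were called, with 29.8% of all genes, and for WT CM against NRF2 KO CM 6, with 21.7%.

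The 3 libraries with KEAP1 KO CM and CDDO-Me were also set against those with WT CM and CDDO-Me. No member was called by limma, where 0.0512% of all genes were called. Tlr2 was higher and Tlr9 lower with KEAP1 KO CM without overlap, 2 of 10 members against 11.1% of all genes. With an unadjusted p under 0.05 there were 1 member, Tlr2, and 4.18% of all genes. The Tlr2 groups had a log2 difference of 0.80 (adjusted p = 0.684) that was 0.28 without replicate 1. The intervals of the member differences ran from -0.96 to 1.36. The effects of CDDO-Me in KEAP1 KO CM and WT CM did not differ for any member or gene by limma (0% called). At an unadjusted p under 0.05 there were 0 members and 225 genes (1.65%), and the 95% intervals ran from -1.38 to 1.48. Between NRF2 KO CM and media no interaction was called either (0% of all genes), and 0 members and 374 genes (2.74%) had an unadjusted p under 0.05. Outside the 10 members, Tlr11 was lower in KEAP1 KO CM/CDDO-Me than in WT CM/CDDO-Me BMDMs without overlap, by a log2 difference of -0.72. With single libraries left out the difference ran from -0.92 to -0.48. It is given without a test, since Tlr11 passed the filter only through these libraries.

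Genes that work with TLRs were read from lists of co-receptors and chaperones, adaptors, kinases and ubiquitin ligases, transcription factors, inhibitors and endosomal proteases. Their counts are read against the 27.8% (WT CM) and 28.8% (KEAP1 KO CM) of all genes called with CDDO-Me. With CDDO-Me in WT CM, 5 of 11 co-receptor and chaperone genes rose and 1 fell, with a median log2 difference of 0.27 against -0.03 over all genes. Cd180, a TLR-like regulator that pairs with Ly86, rose from 88.3 ± 2.98 TPM to 381 ± 49.4 TPM (2.20, SE 0.21, adjusted p = 7.88e-08), and Ly86 rose with it (1.53, adjusted p = 4.4e-05). Unc93b1, the chaperone that carries endosomal TLRs, rose from 579, 507 and 665 TPM to 876, 873 and 905 TPM (0.72, adjusted p = 0.000867). In KEAP1 KO CM 5 of 11 rose and none fell, among them Cd180 (1.86, adjusted p = 7.45e-07), Ly86 (1.62, adjusted p = 2.23e-05) and Unc93b1 (0.82, adjusted p = 0.000214). In control media the direction of Cd180 was the opposite (-0.79, adjusted p = 0.0262), as it was in NRF2 KO CM (-1.24, adjusted p = 0.000473), and Cd14 fell in control media (-1.64, adjusted p = 0.00771).

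Of 5 tested adaptors, 2 rose with CDDO-Me in both CM and none fell, where 27.8% and 28.8% of all genes were called. Myd88 went from 57.2, 55.1 and 54.3 TPM to 134, 122 and 158 TPM in WT CM (1.40, adjusted p = 2.39e-06), with 1.38 in KEAP1 KO CM (adjusted p = 2.94e-06), and Pik3ap1, which links TLRs to PI3K, rose by 0.69 (adjusted p = 0.000238) and 0.85 (adjusted p = 2.26e-05). Among 15 kinases and ubiquitin ligases, 3 rose and 1 fell in WT CM, and 5 rose and none fell in KEAP1 KO CM, shares near the 27.8% and 28.8% of all genes. The ligase Peli1 led both, at 2.16 (adjusted p = 3.94e-07) and 1.98 (adjusted p = 1.24e-06), followed in KEAP1 KO CM by Irak2, a kinase recruited by Myd88, at 1.16 (adjusted p = 0.000147). Of 7 transcription factors, Irf7 and Irf5 rose and Atf3, a repressor of TLR responses, fell in both CM. Irf7 went from 13.5 ± 3.27 TPM to 57.5 ± 12.1 TPM in WT CM (2.13, adjusted p = 4.37e-08) and by 2.44 in KEAP1 KO CM (adjusted p = 6.5e-09), Irf5 by 1.23 (adjusted p = 0.000115) and 1.43 (adjusted p = 1.97e-05), and Atf3 by -0.94 (adjusted p = 1.95e-05) and -0.65 (adjusted p = 0.00102).

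Of the 7 inhibitors, 1 rose and 2 fell in WT CM, and 3 rose and 2 fell in KEAP1 KO CM, against 27.8% and 28.8% of all genes called in either direction. Cyld, which removes ubiquitin chains, rose in both (0.78, adjusted p = 5.18e-06, and 0.81, adjusted p = 3.27e-06), and Tollip fell in both (-0.59, adjusted p = 0.00074, and -0.50, adjusted p = 0.00328). The endosomal proteases had a median of -1.29 in WT CM and -1.16 in KEAP1 KO CM, against -0.03 and -0.02 over all genes. In WT CM 4 of 5 fell, and in KEAP1 KO CM 4 fell and 1 rose, where 27.8% and 28.8% of all genes were called. Their medians were also below 0 in control media (-0.61, none called) and NRF2 KO CM (-0.55, 1 lower). Ctsl, a cathepsin that can cut endosomal TLRs, went from 2168, 2529 and 2967 TPM to 367, 374 and 367 TPM in WT CM (-2.66, SE 0.34, adjusted p = 4e-06), and Ctsk fell by 2.38 on the log2 scale (adjusted p = 2.26e-10). Lgmn, an asparagine endopeptidase, fell by 1.16 in WT CM (adjusted p = 9.89e-05), and Ctsb by 1.29 (adjusted p = 0.0013). With WT CM alone, 6 genes of these lists were called, where 7.33% of all genes were. Among them, Irf7 (1.14, adjusted p = 0.00062) and Ctsl (1.15, adjusted p = 0.0444) rose, while Cd180 (-1.07, adjusted p = 0.00232), Pik3ap1 (-0.99, adjusted p = 2.05e-05) and Irak2 (-0.98, adjusted p = 0.00384) fell.

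**Figure D5:**
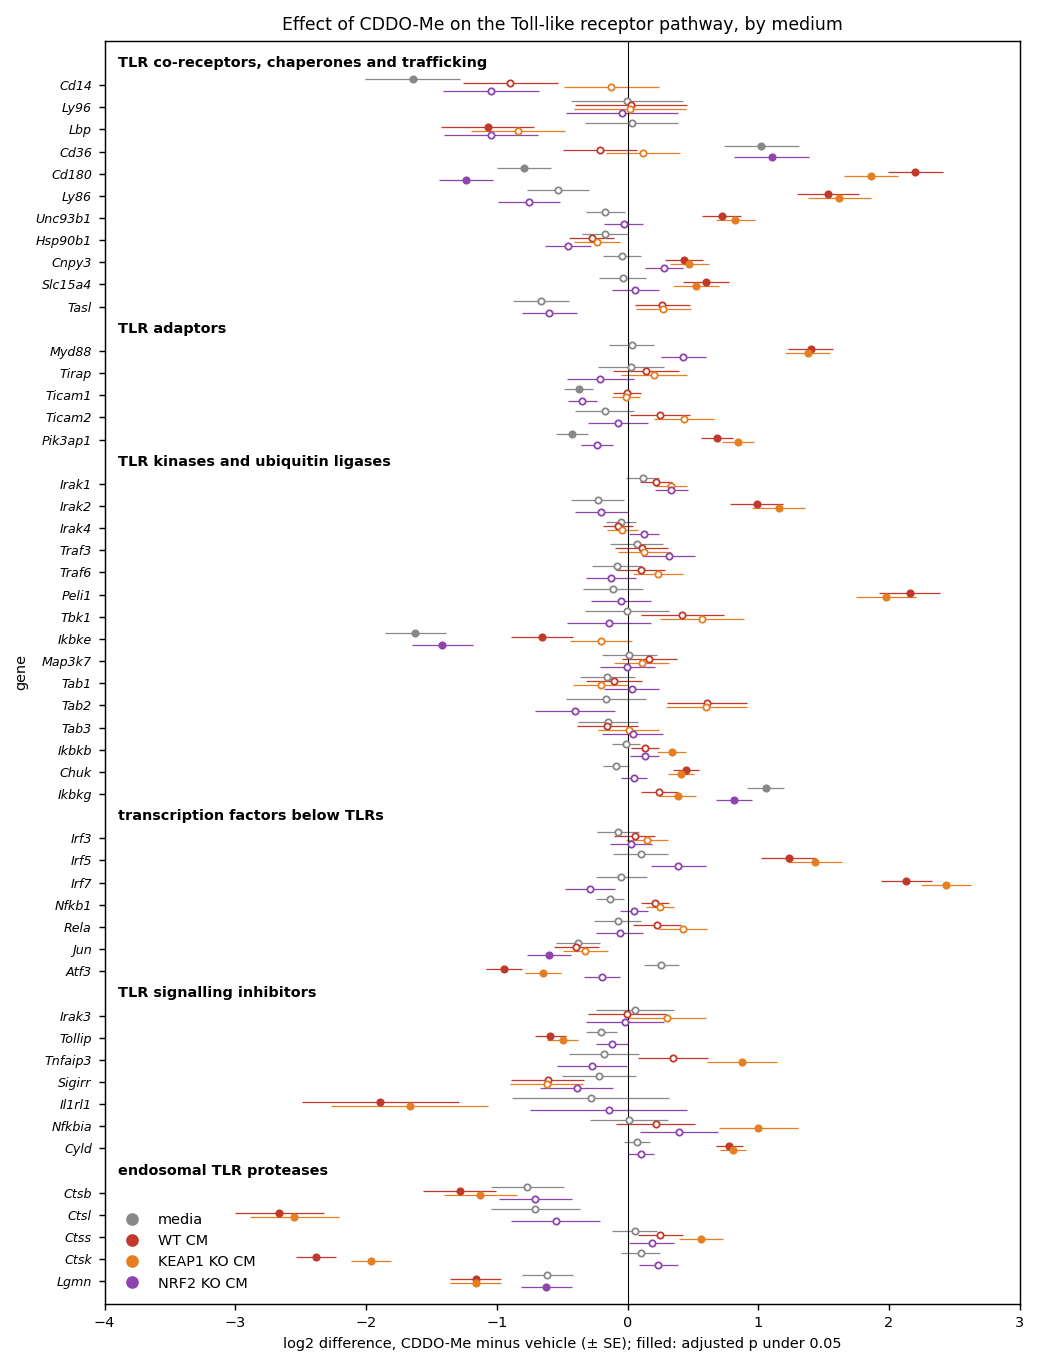
Log2 difference of CDDO-Me minus vehicle (± SE) for genes of the 6 TLR pathway lists in each of the 4 media, with filled points for genes called at adjusted p under 0.05. In WT CM and KEAP1 KO CM, Cd180, Myd88, Peli1 and Irf7 lie above 0 and Ctsl and Ctsk below, while in control media Cd180 is at -0.79.

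The macrophage markers were not constant across these groups either. With CDDO-Me in WT CM 2 of 7 rose and 2 fell, with a median log2 difference of -0.15, and in KEAP1 KO CM 2 rose and 1 fell, with a median of 0.20, where 27.8% and 28.8% of all genes were called. Fcgr1, a high-affinity Fc receptor, rose in WT CM (3.33, adjusted p = 1.42e-12) and in KEAP1 KO CM (3.498, adjusted p = 6.22e-13), and so did Mertk, a receptor for apoptotic cells (0.91, adjusted p = 4.5e-05, and 0.91, adjusted p = 4.4e-05). Cd68, a lysosomal glycoprotein, fell in both (-1.43, adjusted p = 2.49e-06, and -1.31, adjusted p = 7.27e-06), and Adgre1 fell in WT CM (-0.50, adjusted p = 0.0271). In control media Itgam rose (0.67, adjusted p = 0.0439) and Fcgr1 fell (-1.19, adjusted p = 3.18e-05).

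Marker sums of other cells also differed between CDDO-Me and vehicle. The fibroblast sum was 253.4 to 687.3 TPM in WT CM/CDDO-Me BMDMs and 647.6 to 1242 TPM in WT/vehicle BMDMs, and in KEAP1 KO CM it was 217.5 to 919.8 TPM against 945.4 to 1728 TPM, without overlap. The neutrophil sum was higher with CDDO-Me without overlap in all 4 media. It was 32.9 to 56.5 TPM against 10.3 to 31.8 TPM in WT CM and 64.6 to 71.3 TPM against 14.6 to 23.1 TPM in KEAP1 KO CM. In control media it was 29.98 to 45.8 TPM against 13.2 to 25.1 TPM, and in NRF2 KO CM 32.1 to 64.1 TPM against 12.8 to 27.3 TPM. The epithelial or carcinoma sum was 0.0326 to 0.335 TPM against 3.11 to 4.29 TPM in WT CM. In KEAP1 KO CM it was 0.194 to 1.83 TPM against 4.69 to 7.23 TPM, again without overlap. Of its 4 markers only 1 passed the filter. The plasmacytoid dendritic cell sum was 1.07 to 3.80 TPM against 4.802 to 6.83 TPM in WT CM. In KEAP1 KO CM it was 0.565 to 1.09 TPM against 2.13 to 4.30 TPM, without overlap in either CM. Its 1 tested marker was called lower in both (log2 differences -1.11 and -1.30). The mast cell and basophil sum was 0.601 to 0.614 TPM against 1.76 to 3.69 TPM in WT CM. It was also lower in control media and NRF2 KO CM, and overlapped in KEAP1 KO CM. The part of these cells in the differences of the members was not tested.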

How the data were processed

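RNA from 24 libraries of BMDMs was analysed, with groups and replicate numbers taken from the sample labels. The authors quantified poly-A libraries with Kallisto on GRCm39 transcripts and deposited 1 table, whose values are TPM by their sums (999365 to 999801 over named genes in each library), although it is named as length-scaled counts. TPM keep no read depth. The depth behind a value is therefore unknown, and neither a count test nor a counting interval was made. A single line without a gene name, 0.0199 to 0.0635% of TPM, was left out.

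Genes were kept where 3 or more libraries exceeded 1 TPM. TPM were scaled by unweighted trimmed means of M values, trimming 30% of M and 5% of A values. Then log2(scaled TPM + 1) was fitted with limma 3.58.1 in R 4.3.3 (eBayes with a trend, 8 groups, 16 residual degrees of freedom). The 11 comparisons and 5 interactions were tested two-sided, Benjamini-Hochberg adjusted over all 13661 genes and called at 0.05. The pipeline was tested on simulated data. The members and gene lists were chosen with earlier results of these data known. Named were all members, with statistics for those called, up to 4 genes per list of smallest adjusted p in a comparison, and the 3 genes most like each of the 2 members of widest range. Dendritic cell markers, Cd14, macrophage markers and the uncalled members given with values were named after their values were seen. Promoters were cut from the GRCm39 genome with GENCODE mouse release M39, of the build the authors used. A promoter window and a motif that were searched are not reported here. Alternatives were other scaling, filters, pseudocount 0.1, array weights, a replicate block, the compared groups only, each library left out and, chosen after seeing the data, both NRF2 KO replicate 3 libraries left out.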

Additional observations from a re-analysis of the deposited data

Results flagged for a closer look

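The effect of CDDO-Me differed between media, by limma's interaction test, for 3 members, each value being a difference of log2 differences. For WT CM minus media, the values were 1.55 for Tlr2 and 3.42 for Tlr9. For KEAP1 KO CM minus media they were 2.23 for Tlr2 and 3.15 for Tlr9. For WT CM minus NRF2 KO CM they were -0.71 for Tlr4 and 3.30 for Tlr9. The first 2 sets share the media libraries, and the first and last share those of WT CM. No formal screen for outlying samples was made in groups of 3 libraries, but each library was left out in turn. The Tlr2 value of 2.23 was 1.71 without replicate 1 of KEAP1 KO CM/CDDO-Me. The Tlr4 call was lost without some single libraries (limma adjusted p up to 0.0665).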

How the results depend on the processing

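No named difference changed sign under any alternative run. Among values under an alternative, 1224 kept their side of the threshold, 90 gained a call and 31 lost one, and Tlr11 could not be tested with a mean TPM of at least 5. The number of members called moved by over 1.5 times as follows. Without a filter, CDDO-Me in NRF2 KO CM called 0. Array weights gave 7 for KEAP1 KO/vehicle against media/vehicle, 3 for CDDO-Me in media, 2 in NRF2 KO CM, and interactions of 8 (WT CM) and 8 (KEAP1 KO CM) against media and 9 for WT CM against NRF2 KO CM. The compared groups alone gave 1 for WT/vehicle and 1 for KEAP1 KO/vehicle against NRF2 KO/vehicle, 3 for CDDO-Me in media, 0 in NRF2 KO CM, and interactions of 7 and 6 against media. Without both NRF2 KO replicate 3 libraries the counts were 2 in media, 0 in NRF2 KO CM and 6, 7 and 6 for these interactions. Leaving out single libraries gave 0 to 1 in NRF2 KO CM and 1 to 5 for WT CM against NRF2 KO CM. The library names repeat the same numbers in every group, but no shared origin of a number is stated. Of 84 same-numbered pairs of libraries, 71 deviated together with a correlation over 0.1 (lowest 0.0221). Of 24 libraries, 22 correlated best with their own number. This is a hint of shared batches from names and data and not a stated design, and the main fit ignores it. With the replicate block, CDDO-Me in NRF2 KO CM called 2 members, and the interactions 5, 4 and 4. Over all genes, WT/vehicle against media/vehicle called 1002 genes, 1734 with the block and 2597 without both libraries. CDDO-Me in media called 821, 1466 and 2117, in WT CM 3797, 4631 and 5925, and in KEAP1 KO CM 3928, 4821 and 6148. Array weights called 1080 genes for KEAP1 KO/vehicle against WT/vehicle, where 0 were called without them. The read depth behind low members such as Tlr5 is unknown.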

Other observations

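For the 2 members of widest range, the genes with the most similar group means were found as the mean absolute difference between centred log2 group means over 8 groups, a description without a test. Closest to Tlr9 were the deubiquitinase gene Otud1 (0.143), the cytokine receptor gene Il12rb2 (0.184) and the interferon-induced gene Ifit3b (0.195). Mean TPM of Otud1 was 6.71 in WT/vehicle and 55.8 in WT CM/CDDO-Me BMDMs, and that of Il12rb2 was 2.39 and 22.2. That of Ifit3b was 0.0656 and 7.93. Its group means stayed low, at or under 0.928 TPM, outside the groups with CDDO-Me in WT CM or KEAP1 KO CM. Closest to Tlr7 were the kinesin gene Kif3a (0.0967), the myelin protein gene Pmp22 (0.140) and the ubiquitin ligase gene Wwp1 (0.181).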
